A study of Mus musculus with 41 samples.

Results

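The 183 immunoglobulin heavy chain variable segments (Ighv rows) of the mouse were described in B cells sorted from spleen, in 40 bulk RNA libraries from 16 animals. Members were all rows whose name begins with Ighv, 183 of the 41075 rows for which TPM (abundance per exonic length, scaled to the same sum in every library) was deposited. The number after Ighv names 1 of 16 sequence families, and the number after the hyphen names the segment. RefSeq lists 120 of the 183 as V segments and 63 as pseudogenes. All lie on chromosome 12, minus strand, between 113536549 and 115973574 (GRCm39), with the D and J segments on the side of the lowest coordinate.

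Mice of 3 to 5 months were wild type (wt) or carried Mek1 flox/flox alleles, Mek2+/- and Vav1-icre, a Cre recombinase driven by a promoter of blood-forming cells; the labels call this genotype 1Mek2. Sorts were B220+CD138+ (Plasma), B220+CD93+CD138- (Immature) and, among B220+CD93-CD138- cells, GL7+FAS+ (GC, germinal center), GL7-FAS-CD21+CD23+ (Follicular) and GL7-FAS-CD21+CD23- (MarginalZone); the gate of the ABC (age-associated B cell) libraries is not given in the sources used here. Per genotype there were 4 GC and 4 Follicular libraries and 3 of each other subset, and an Immature library whose name reads Mek1ff was left out. A GC library of the same animal, kept as GC_wt replicate 4, is labelled wt though its name also reads Mek1ff.

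Map2k1 (Mek1) TPM were lower in every library labelled 1Mek2 than in every wt library in Immature (54.3 to 140.7 against 143.6 to 173.2) and MarginalZone (15.997 to 44.6 against 55.5 to 214.4), and the ranges overlapped in the other subsets. In no subset was Map2k2 (Mek2) lower in every library labelled 1Mek2 than in every wt library, so the text speaks of libraries labelled 1Mek2. Libraries held 7902640 to 29204625 exon reads, of which 1469 to 443178 lay on Ighv rows. Among the ABC, Follicular and MarginalZone libraries, 4 stood apart, with Ms4a1 (CD20 of mature B cells) at 1329 to 2486 TPM against 27.9 to 633.9: ABC_1Mek2 replicate 3, Follicular_wt replicate 4, Follicular_1Mek2 replicate 2 and MarginalZone_wt replicate 2. The 3 ABC wt libraries held 2000 to 4176 TPM summed over 5 B cell genes against 10867 to 14972 in Follicular wt, and 1713 to 1843 TPM of Siglech, a gene of plasmacytoid dendritic cells, against 0.217 to 1.41. ABC libraries labelled 1Mek2 held 7600 to 12199 TPM of the 5 B cell genes, all above ABC wt.

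A heavy chain gene is assembled in each developing B cell when RAG proteins join a V segment to a D and a J segment, and the joined V segment is then transcribed with a constant gene. The mix of V segments in a sorted population depends on the mix of its B cell clones and on the RNA each cell holds, and plasma cells are known for their high amounts of antibody RNA. In bulk RNA, fewer cells with a segment and less RNA per cell cannot be told apart.

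Sequences are shown for the segments that carry the results. The first 5 are the relatives that filled most of the Ighv total in several ABC and marginal zone libraries; Ighv5-16 and Ighv9-3 were present or nearly absent depending on the animal. Each is the last stretch, of equal length, of the GENCODE M21 transcript (GRCm38, minus strand of chromosome 12), 5′ to 3′. Capitals mark bases that differ from Ighv5-6; Ighv9-3, of another family, has none marked.
Ighv5-6: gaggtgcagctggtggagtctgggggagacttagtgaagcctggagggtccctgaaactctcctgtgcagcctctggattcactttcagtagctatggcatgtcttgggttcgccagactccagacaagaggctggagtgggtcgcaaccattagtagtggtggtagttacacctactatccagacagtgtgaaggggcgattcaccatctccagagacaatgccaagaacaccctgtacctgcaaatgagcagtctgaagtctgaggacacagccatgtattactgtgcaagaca
Ighv5-4: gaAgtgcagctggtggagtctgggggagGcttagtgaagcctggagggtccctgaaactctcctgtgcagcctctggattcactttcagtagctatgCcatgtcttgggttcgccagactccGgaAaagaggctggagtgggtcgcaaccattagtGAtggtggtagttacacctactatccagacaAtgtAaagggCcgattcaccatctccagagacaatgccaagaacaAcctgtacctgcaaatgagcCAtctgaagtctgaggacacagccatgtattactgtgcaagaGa
Ighv5-12: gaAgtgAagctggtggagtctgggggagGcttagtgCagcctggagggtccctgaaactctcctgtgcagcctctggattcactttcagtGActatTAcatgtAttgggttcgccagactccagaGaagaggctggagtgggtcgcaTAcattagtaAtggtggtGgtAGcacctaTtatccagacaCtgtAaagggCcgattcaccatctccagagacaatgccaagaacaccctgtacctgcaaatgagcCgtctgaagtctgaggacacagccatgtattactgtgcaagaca
Ighv5-9: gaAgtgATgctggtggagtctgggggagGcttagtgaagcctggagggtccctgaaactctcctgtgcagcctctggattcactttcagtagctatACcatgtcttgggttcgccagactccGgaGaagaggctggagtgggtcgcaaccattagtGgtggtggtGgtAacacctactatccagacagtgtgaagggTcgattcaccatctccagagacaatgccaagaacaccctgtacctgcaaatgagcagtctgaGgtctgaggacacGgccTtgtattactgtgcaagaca
Ighv5-9-1: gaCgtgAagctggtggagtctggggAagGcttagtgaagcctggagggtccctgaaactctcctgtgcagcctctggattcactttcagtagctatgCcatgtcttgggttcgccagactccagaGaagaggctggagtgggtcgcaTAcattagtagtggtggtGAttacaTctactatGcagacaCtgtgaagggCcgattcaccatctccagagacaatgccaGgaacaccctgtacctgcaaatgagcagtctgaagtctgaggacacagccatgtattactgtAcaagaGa
Ighv5-16: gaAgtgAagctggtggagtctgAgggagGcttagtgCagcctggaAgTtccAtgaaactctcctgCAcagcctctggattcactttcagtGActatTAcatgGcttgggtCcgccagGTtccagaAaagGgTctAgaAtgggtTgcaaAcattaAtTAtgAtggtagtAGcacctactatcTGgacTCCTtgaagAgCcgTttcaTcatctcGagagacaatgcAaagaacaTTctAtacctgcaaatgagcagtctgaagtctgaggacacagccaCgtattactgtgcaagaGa
Ighv9-3: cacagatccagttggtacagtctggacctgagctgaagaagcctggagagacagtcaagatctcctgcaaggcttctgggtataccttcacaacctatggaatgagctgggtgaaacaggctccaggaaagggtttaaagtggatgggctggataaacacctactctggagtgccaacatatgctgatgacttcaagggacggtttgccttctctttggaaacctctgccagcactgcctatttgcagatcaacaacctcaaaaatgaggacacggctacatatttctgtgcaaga

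Ighv5-4, Ighv5-9, Ighv5-9-1 and Ighv5-12 differed from Ighv5-6 at 14, 15, 17 and 21 bases. The longest stretch that any pair of the 5 shares without a difference was 53 to 96 bases, below the read length of 100 bases. Ighv5-16 differed at 48 bases. In GRCm39 coordinates Ighv5-6 lies at 113589128 to 113589421, Ighv5-4 at 113561068 to 113561361, Ighv5-16 at 113802148 to 113802441 and Ighv9-3 at 114104312 to 114104742.

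The Ighv total was by far highest in plasma cells. It made up 8.27%, 3.31% and 6.79% of all TPM in the 3 Plasma wt libraries and 6.27%, 13.4% and 9.11% in those labelled 1Mek2. Immature wt libraries followed with 0.786%, 0.652% and 0.621%, and Immature libraries labelled 1Mek2 with 0.952%, 3.00% and 2.16%. Every Plasma library lay above every other library. GC libraries ranged from 0.130% to 0.433% in wt and from 0.356% to 0.779% in those labelled 1Mek2. In the same order of genotypes, Follicular libraries ranged from 0.102% to 0.510% and from 0.0968% to 0.753%, MarginalZone from 0.0719% to 0.473% and from 0.115% to 0.263%, and ABC from 0.319% to 0.528% and from 0.0707% to 0.505%.

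Against Follicular, with libraries reassigned within each genotype, the total was higher by 7.61 percentage points in Plasma and by 1.11 in Immature (two-sided exact permutation tests, p = 0.000816 for both, the smallest the design allows; adjusted over 5 subsets p = 0.00204). GC, ABC and MarginalZone differed from Follicular by 0.137, 0.0803 and -0.0454 points (exact permutation, adjusted p = 0.367, 0.668 and 0.746). Without the 4 libraries that stand apart, the GC difference was 0.263 points (exact permutation, adjusted p = 0.00833). These comparisons share the Follicular libraries, and libraries of 1 animal in 2 subsets are treated as independent. Between Immature or GC and Follicular only animal 636 gave libraries of both, so subset and animal are hard to tell apart there.

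**Figure D1:**
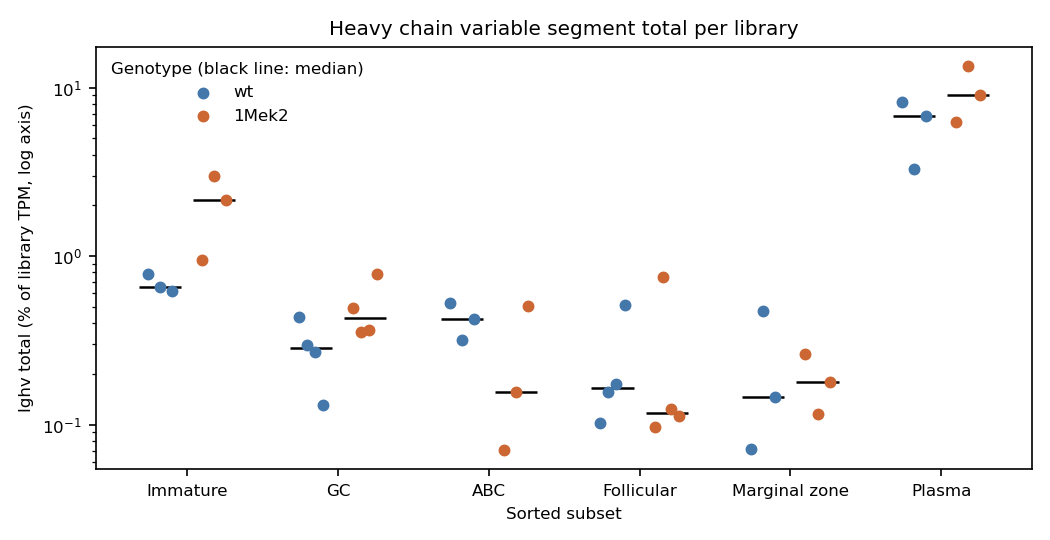
Ighv total per library as percent of TPM on a log axis, by sorted subset and genotype; points are libraries and black lines medians. Plasma libraries lie at 3.31% to 13.4%, all above the rest, and Immature libraries labelled 1Mek2 lie above Immature wt.

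Between genotypes the total was higher in every Immature library labelled 1Mek2 than in every wt one, with means of 2.04% ± 1.03 (SD, n = 3) against 0.686% ± 0.0873 (n = 3, exact permutation p = 0.1, the smallest 3 against 3 allows). Jchain, which joins secreted antibody and is abundant in plasma cells, moved with it, at 2248, 5315 and 4755 TPM against 1043, 305.5 and 249.1 TPM. Summed over 7 plasma cell genes these libraries held 4413 to 7814 TPM against 1290 to 2663, and summed over 5 germinal center genes 828.4 to 999.8 TPM against 53.2 to 419.8. The 5 B cell genes summed to less, 8782 to 10116 TPM against 13396 to 14611, as did 4 follicular genes (287.9 to 453.6 TPM against 664.8 to 966.2). The part of these in the Ighv difference was not tested. In GC the means were 0.498% ± 0.198 and 0.283% ± 0.124 (SD, n = 4 each, exact permutation p = 0.114). In Immature and GC the animals of each genotype also differed in which segments were in use, as described below. Genotype and this division between animals cannot be told apart there. In the other subsets the genotypes overlapped. Over animals, 8 against 8, with subsets centred, the difference was 0.594 points (exact permutation p = 0.0519, adjusted over 3 measures 0.156).

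Evenness was measured by the effective number of segments, the inverse Simpson number of the Ighv shares: the number of equally used segments that would give the same concentration. Plasma libraries were the most even, with 46.2, 36.7 and 45.2 in wt and 42.3, 60.7 and 42.3 in libraries labelled 1Mek2. Immature wt libraries held 30.6, 31.0 and 28.4 and those labelled 1Mek2 36.0, 38.0 and 44.9, without overlap (exact permutation p = 0.1). The animals of these 2 groups also differed in which segments were in use, as described below. Genotype and this division between animals cannot be told apart here. GC ranged from 20.7 to 38.0 and Follicular from 24.2 to 45.1. ABC libraries held 3.27, 14.0 and 5.87 in wt and 10.1, 6.22 and 43.0 in those labelled 1Mek2. MarginalZone libraries held 21.8, 25.2 and 16.6 in wt (replicates 1 to 3) and 12.3, 17.1 and 3.19 in those labelled 1Mek2. The only ABC library in the range of Follicular is ABC_1Mek2 replicate 3, and the highest MarginalZone value belongs to MarginalZone_wt replicate 2; both are among the 4 that stand apart.

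Against Follicular the effective number was lower in ABC by 19.6 (exact permutation p = 0.0098, adjusted 0.019) and in MarginalZone by 17.4 (p = 0.000816, exact permutation, adjusted 0.00408), and higher in Plasma by 12.2 (exact permutation p = 0.0114, adjusted 0.019). Without the 4 libraries that stand apart these were -23.6, -16.5 and 14.1, all still past the threshold. With the Shannon number in place of Simpson's the Plasma call was lost (10.2, exact permutation adjusted p = 0.0939). The ABC call was lost without ABC_1Mek2 replicate 2 (-16.3, exact permutation adjusted p = 0.0508), and the Plasma call without Plasma_1Mek2 replicate 2 (9.10, exact permutation adjusted p = 0.0571). MarginalZone and ABC libraries also held fewer Ighv reads (medians of 3228.5 and 4941) than Plasma libraries (302810), while Follicular libraries held 4290.5. Between genotypes no subset passed the threshold (exact permutation, adjusted p from 0.4 to 0.743); with 3 against 3, where p cannot go below 0.1, none could, and the Immature libraries did not overlap. Over animals the difference was 5.39 (exact permutation p = 0.279).

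**Figure D2:**
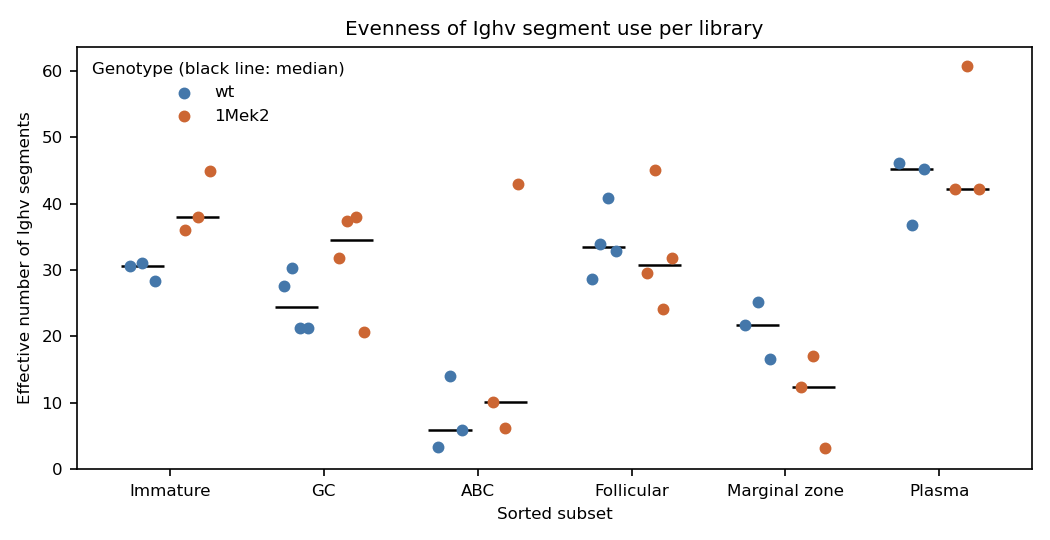
Effective number of Ighv segments per library, by sorted subset and genotype; points are libraries and black lines medians. ABC and marginal zone libraries reach down to 3.27 and 3.19, and Plasma libraries lie at 36.7 to 60.7.

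The leading segments were few. Only 9 segments were the most abundant of a library: Ighv5-6 in 21 of 40 libraries, Ighv9-3 in 9, Ighv5-9 in 3, Ighv8-6 in 2, and Ighv1-5, Ighv3-6, Ighv10-1, Ighv8-4 and the annotated pseudogene Ighv4-2 in 1 each. Of the 183 rows, 82 reached 1% of the Ighv total in some library, 11 reached 10%, and 2 had no read in any library. Ighv5-6 had the largest mean share in 10 of 12 groups, and Ighv9-3 in Immature wt (10.6% ± 1.34, SD, n = 3) and GC wt (12.9% ± 4.14, n = 4). Annotated pseudogenes together held 0.502% to 16.6% of the total, and 2 of them, Ighv4-2 and Ighv7-3, carried 70856 and 60338 reads over all libraries.

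In ABC and marginal zone libraries a single segment could fill much of the total. Ighv5-6 made up 49.0% in ABC_wt replicate 1, 37.9% in ABC_wt replicate 3 and 36.8% in ABC_1Mek2 replicate 2, but 2.78% in ABC_wt replicate 2, 1.30% in ABC_1Mek2 replicate 1 and 6.39% in ABC_1Mek2 replicate 3. In MarginalZone it made up 54.3% and 21.3% in replicates 3 and 1 labelled 1Mek2 and 2.93% in replicate 2, against 16.1%, 12.6% and 3.997% in wt. In reads, 2496 of 5177 Ighv reads of ABC_wt replicate 1 lay on Ighv5-6 (48.2%, 95% Wilson interval 46.9% to 49.6%) and 2327 of 4386 in MarginalZone_1Mek2 replicate 3 (53.1%, 51.6% to 54.5%); these intervals cover counting error only. In Plasma, Ighv5-6 stayed between 3.86% and 7.04%. The largest share of any segment was higher than in Follicular by 17.7 points in ABC (exact permutation p = 0.0122, adjusted 0.0231) and by 12.4 in MarginalZone (exact permutation p = 0.00245, adjusted 0.0122), and lower by 3.20 in Plasma (exact permutation p = 0.0139, adjusted 0.0231). The ABC call was lost without ABC_1Mek2 replicate 1 (17.8 points) or 2 (13.8 points, exact permutation adjusted p = 0.0508 for both). Without MarginalZone_1Mek2 replicate 3 the MarginalZone difference was 6.26 points, still past the threshold. The Plasma difference missed the threshold in exon reads, at -2.89 (exact permutation, adjusted p = 0.0503), and without Plasma_wt replicates 1 or 3 or Plasma_1Mek2 replicate 2 (exact permutation, adjusted p from 0.0603 to 0.0984).

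Some relatives of Ighv5-6 were high in the same libraries and others were not. Among ABC, Follicular and MarginalZone libraries, the 4 with the most Ighv5-6 also held the most Ighv5-4 (7.41% to 22.8%, against at most 5.66% in the rest) and Ighv5-12 (6.93% to 8.51%, against at most 6.77%). Ighv5-9 and Ighv5-9-1 were highest where Ighv5-6 was low: Ighv5-9 held 20.8% in ABC_1Mek2 replicate 1, and Ighv5-9-1 held 10.3% in MarginalZone_wt replicate 3, 9.75% in ABC_wt replicate 2 and 9.52% in MarginalZone_1Mek2 replicate 2. These libraries came from animals 562 and 634. Low Ighv5-6 followed the animal: all libraries of animals 562, 634 and 713 held 0.479% to 3.997%. The ABC, Follicular and MarginalZone libraries of other animals held 6.24% or more. In ABC_wt replicate 1 Ighv5-4 held 22.8%, Ighv5-12 8.35%, Ighv5-9 4.18% and Ighv5-9-1 4.18%, and the Ighv5 family as a whole 93.0% of the total. In MarginalZone_1Mek2 replicate 3 Ighv5-12 held 8.51%, Ighv5-4 7.41%, Ighv5-9 4.88% and Ighv5-9-1 3.50%, and the family 81.0%. The same segments held 4.97%, 2.88%, 3.10% and 1.93% (Ighv5-4, Ighv5-12, Ighv5-9, Ighv5-9-1) in Follicular_wt replicate 1, which came from the same animal as ABC_wt replicate 1. Whether reads of 1 rearranged Ighv5 segment were counted on its close relatives was not tested. ABC_wt replicate 2 and ABC_1Mek2 replicate 1 had other leaders: Ighv4-2 (11.1%), Ighv5-9 (11.1%) and Ighv9-4 (10.03%) in the first, Ighv5-9 (20.8%), Ighv6-3 (13.0%) and Ighv7-3 (12.7%) in the second.

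**Figure D3:**
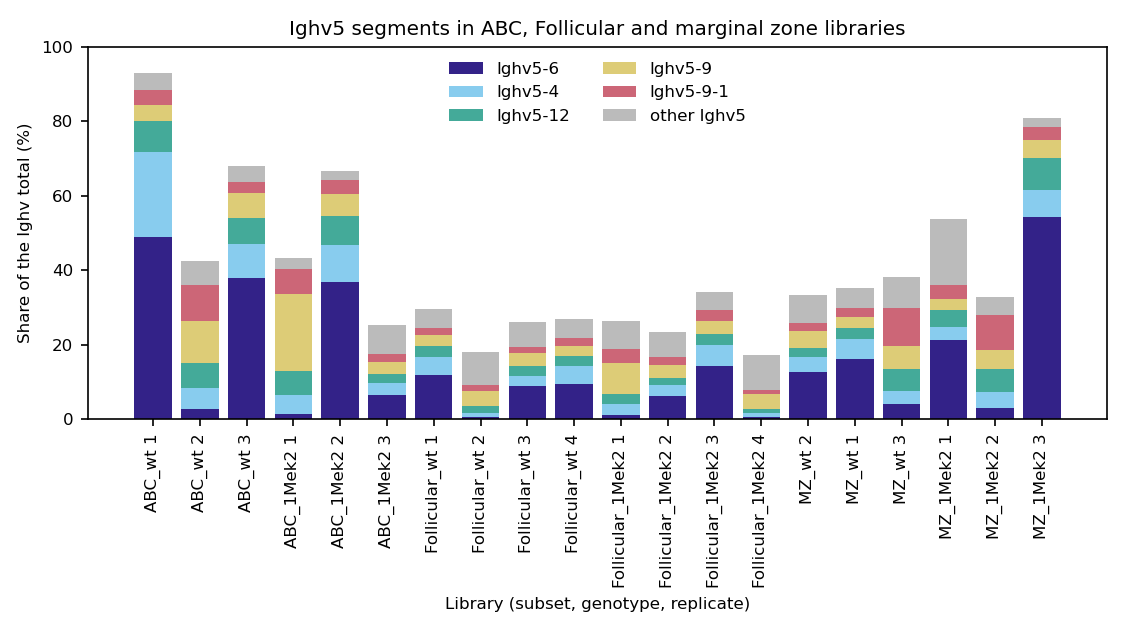
Stacked shares of Ighv5 segments in the Ighv total (percent) of each ABC, Follicular and marginal zone (MZ) library; colours are segments and grey the rest of the family. Ighv5-6 takes 49.0% in ABC_wt replicate 1 and 54.3% in MZ_1Mek2 replicate 3, where Ighv5-4 and Ighv5-12 are high too. Ighv5-9 and Ighv5-9-1 are highest in libraries of animals 562 and 634, which hold little Ighv5-6.

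Other immunoglobulin rows were uneven in some of these libraries. The effective number of the 4 heavy chain J rows (Ighj) was 1.78 in ABC_wt replicate 1, 1.34 in ABC_wt replicate 2 and 1.58 in ABC_1Mek2 replicate 1, and 2.40 to 3.92 in all other libraries. The other ABC and MarginalZone libraries led by Ighv5-6 were among these, with 3.62 in ABC_wt replicate 3, 3.77 in ABC_1Mek2 replicate 2 and 2.86 in MarginalZone_1Mek2 replicate 3. Ighj4 held 67.4% and Ighj1 32.6% in ABC_wt replicate 1, from 174 reads. Ighj1 held 85.9% in ABC_wt replicate 2 and 78.4% in ABC_1Mek2 replicate 1, from 292 and 307 reads. For the light chain kappa variable rows (Igkv) the effective number was 3.40, 9.83 and 14.2 in ABC wt, 20.7, 11.2 and 45.1 in ABC labelled 1Mek2, and 43.4 to 57.2 in Plasma. In MarginalZone it was 28.5, 46.5 and 10.1 in wt (replicates 1 to 3) and 15.8, 14.3 and 15.6 in libraries labelled 1Mek2, and in Follicular 20.5 to 43.98. ABC_wt replicate 1 was thus the lowest of all libraries for Igkv and the second lowest for Ighv.

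The set of segments in use differed from animal to animal. By a rule chosen after the values were seen, segments at 1% or more in each of the Follicular libraries of animals 412, 671 and 654 and at 0.2% or less in each of those of 562, 634 and 713 formed a first set (Ighv1-67, Ighv1-9, Ighv3-2, Ighv9-1 and Ighv9-3), and the reverse a second set (Ighv1-62, Ighv3-3, Ighv3-4, Ighv5-16, Ighv8-13 and Ighv8-6). In the libraries that the rule did not use, animals 358, 412, 413, 487, 565 and 654 held the second set at 0% to 0.329%. They held the first set at 0.105% to 28.0%, with the lowest values in ABC_wt replicate 1 of animal 412 (0.105%, 6 reads) and in MarginalZone_1Mek2 replicate 3 and ABC_1Mek2 replicate 2 of animal 654 (2.25% and 7.43%), and 12.9% or more in the rest. Animals 562 and 634 held the second set at 5.30% to 19.7%, with the first set at 0.0892% to 3.29%. Animals 323, 405, 570, 636, 666 and 670 held both sets, the second at 1.65% to 8.40% and the first at 1.46% to 21.8%.

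Ighv5-16 showed this most sharply. It had no read in any library of animals 412, 413, 565 and 671, and 12, 2 and 9 reads among the 363109, 310418 and 436723 Ighv reads of animals 358, 487 and 654, all of them in Plasma libraries. In the other 9 animals it had 87 to 7623 reads, or 0.867% to 4.55% of Ighv reads. Ighv9-3 was its mirror image in 3 animals: it had 0 or 1 read in each of the 7 libraries of animals 562, 634 and 713, and 1.87% to 17.8% of Ighv reads in the other 13 animals. Of the wt animals 2 of 8 (562 and 670) held Ighv5-16 at 0.5% of Ighv reads or more, a limit chosen after the values were seen, and of the animals labelled 1Mek2 7 of 8 (all but 654). Several ABC and MarginalZone libraries departed from the others of their animal. Ighv9-3 held 0.0658% in ABC_wt replicate 1 against 7.35% to 8.15% in the other libraries of animal 412. It held 0.762% in MarginalZone_1Mek2 replicate 3 and 2.16% in ABC_1Mek2 replicate 2 against 5.28% and 8.16% in the Plasma and Follicular libraries of animal 654. Ighv5-16 had no read among 2987 in ABC_wt replicate 2 of animal 562. MarginalZone_1Mek2 replicate 1 departed from the other 3 libraries of animal 323, with 58 reads on Ighv8-6 against 0, 1 and 9, and with Ighv9-3 at 0.292% of the total against 4.17% to 5.27%.

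**Figure D4:**
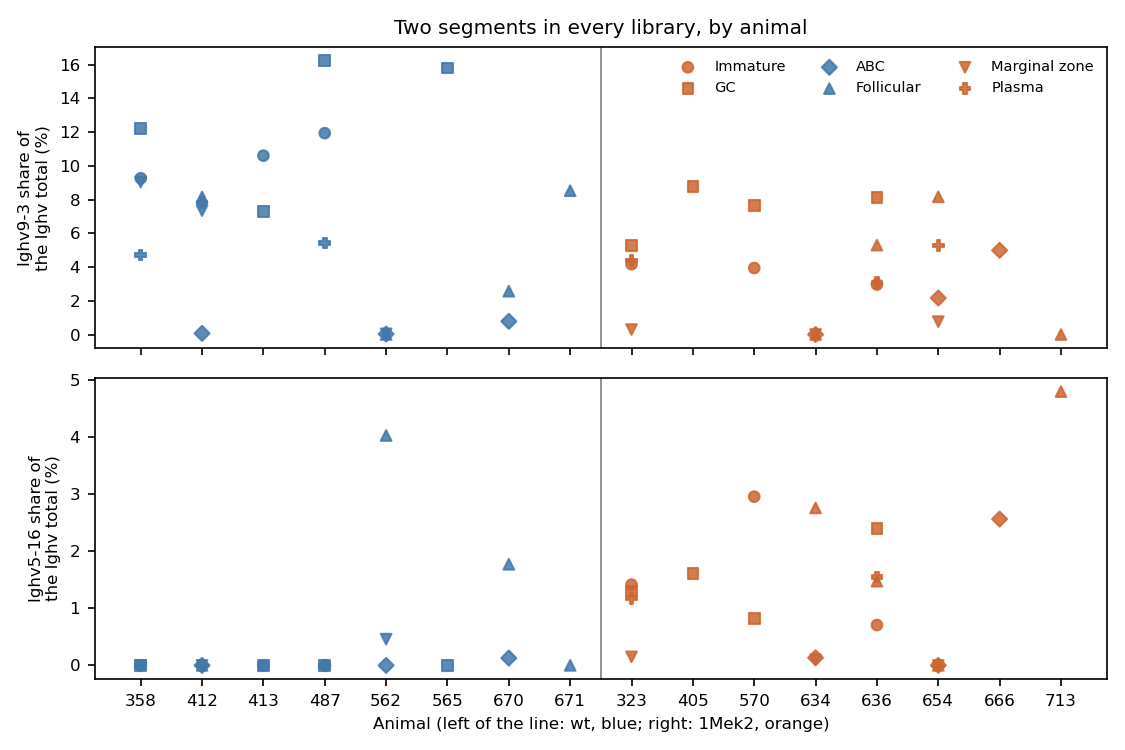
Share of Ighv9-3 (upper panel) and Ighv5-16 (lower panel) in the Ighv total (percent), by animal; each point is a library, its shape the subset and its colour the genotype. Ighv5-16 is at or near 0 in 6 of 8 wt animals and in 1 of 8 animals labelled 1Mek2, and Ighv9-3 in animals 562, 634 and 713.

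Whole profiles varied between animals as well. The overlap of 2 libraries was taken as the sum over segments of the smaller share, 100% for equal profiles. Among Follicular libraries, 412 and 654, of different genotype, overlapped by 87.6%, 412 and 671 by 86.3%, and 562 and 713, again of different genotype, by 82.2%, while 412 and 562, both wt, overlapped by 46.6%. Libraries of the same animal overlapped by 21.3% to 84.0% (median 74.6%, 42 pairs); the lowest pairs each include an ABC or a MarginalZone library. Within subsets the median overlap was 76.6% in Plasma, 70.9% in Immature, 69.8% in GC, 67.1% in Follicular, 42.5% in MarginalZone and 34.4% in ABC. Animals 562, 634 and 713, nearly without Ighv9-3, gave only ABC, Follicular and MarginalZone libraries, so subset and animal are mixed in these medians. The highest overlap of all, 91.4%, was between ABC_1Mek2 replicate 3 and Follicular_1Mek2 replicate 2, from animals 666 and 636.

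Segments were tested 1 by 1 between genotypes with limma on log2(TPM + 1) over all rows, with Benjamini-Hochberg adjustment at 0.05; fold changes on this scale understate those of low rows. In Immature 12 of 131 tested segments were higher in libraries labelled 1Mek2 and none lower, where 0.26% of all 12683 rows were called higher. The median log2 fold change was 1.45 over the segments and -0.20 over all rows. Ighv5-16 had 0 TPM in all 3 wt libraries and 134.6, 886.8 and 152.9 TPM in those labelled 1Mek2, at least 95.8-fold higher when the lowest is set against 3 reads in a wt library (limma adjusted p = 0.00688). Ighv1-82, the segment farthest from D among those called, had 15.5, 33.3 and 32.2 TPM in wt and 406.3, 914.9 and 604.3 TPM in libraries labelled 1Mek2 (log2 fold change 4.52 ± 0.37 SE, limma adjusted p = 0.00688). By fold change Ighv1-62 (4.68 ± 0.49, limma adjusted p = 0.0147) ranked before Ighv1-82, and Ighv3-4 (4.36 ± 0.48, limma adjusted p = 0.0147) after it. Ighv1-62 and Ighv3-4, like Ighv5-16, belong to the second set. Ighv5-16 was called in all 11 alternatives run. The count of called segments was 1 and 2 without Immature_1Mek2 replicates 4 and 3, 40 without replicate 2, and 4 and 6 without Immature_wt replicates 2 and 3. Over all rows the calls in these runs numbered 1, 2, 139, 9 and 22.

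In GC 4 of 119 tested segments were higher and none lower, with 0.0661% of all rows called higher. Ighv5-16 was again at 0 in all 4 wt libraries and at 64.2, 125.5, 29.3 and 87.3 TPM in those labelled 1Mek2 (at least 19.7-fold higher, limma adjusted p = 0.000278). Ighv10-3, Ighv1-62 and Ighv1-34 followed, with log2 fold changes of 3.97 ± 0.61, 3.78 ± 0.50 and 2.57 ± 0.38 (SE, limma adjusted p = 0.0451, 0.0311 and 0.0426). All 7 wt libraries of these 2 subsets came from animals without Ighv5-16 there, and all 7 libraries labelled 1Mek2 from animals with it, so that genotype and this division between animals cannot be told apart in Immature and GC. The GC count was 1 to 3 when single libraries were left out. With edgeR on exon reads it was 0 (Ighv5-16 at an adjusted p of 0.066). Below an unadjusted edgeR p of 0.05 were 15 of 92 segments and 994 of 13180 rows.

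In Plasma 4 of 144 tested segments were higher and none lower, where 0.654% of all rows were called higher. The median log2 fold change of all rows was -0.67, and -0.03 after quantile normalisation, when 1 segment was called. Ighv15-2 had 1.10, 3.93 and 0 TPM in wt and 123.2, 97.6 and 177.5 TPM in libraries labelled 1Mek2 (log2 fold change 5.90 ± 0.60 SE, limma adjusted p = 0.0124). Ighv5-2, Ighv2-9-1 and Ighv1-62-2 were higher by 2.68 ± 0.56, 2.54 ± 0.55 and 2.44 ± 0.49 (SE, limma adjusted p = 0.0388, 0.0404 and 0.0363). No Plasma segment was called with edgeR, where 70 of 135 segments and 2222 of 14852 rows were below an unadjusted p of 0.05. None was called with no filter on low values, or without Plasma_wt replicate 3 or Plasma_1Mek2 replicate 1. Without Plasma_1Mek2 replicate 3 none of these 4 segments was called. Other cell types moved with genotype in this sort: 6 T cell genes summed to 2306 to 4601 TPM in wt and 839.2 to 1307 TPM in libraries labelled 1Mek2, with none at 0, and 5 neutrophil genes to 2524 to 9460 and 2201 to 12597 TPM, overlapping. The 5 B cell genes summed to 850.2 to 1092 TPM in wt and 1398 to 1984 TPM in libraries labelled 1Mek2. Their part in the segment differences was not tested. In ABC, Follicular and MarginalZone, where 0% of all rows were called by limma, no segment was called either. Below an unadjusted limma p of 0.05 were 7 of 87, 1 of 119 and 6 of 84 segments. Over all rows these were 1571 of 11069, 1606 of 12869 and 1319 of 11995. With edgeR no segment was called.

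By family, with tests added after the values were seen, Ighv9 held a smaller share in libraries labelled 1Mek2 when averaged over subsets and tested over animals (-5.87 points, exact permutation p = 0.00575, adjusted over families and position 0.0345), and so did Ighv4 (-1.57 points, exact permutation p = 0.00388, adjusted 0.0345). Ighv1 was higher by 9.30 points (exact permutation p = 0.0126, adjusted 0.0503). Both calls were lost when GC_wt replicate 4, ABC_wt replicate 2, Follicular_wt replicates 3 or 4 or Follicular_1Mek2 replicate 4 was left out (exact permutation adjusted p from 0.0528 to 0.142), as was that of Ighv9 without Immature_wt replicate 2 (0.0951) and that of Ighv4 without the 4 libraries that stand apart (0.0734). In Immature, Ighv9 held 14.5% to 18.4% in wt and 4.90% to 6.40% in libraries labelled 1Mek2. Ighv9-1 and Ighv9-3 belong to the first set of segments, whose presence differs between animals, and the part of that in these differences was not tested.

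**Figure D5:**
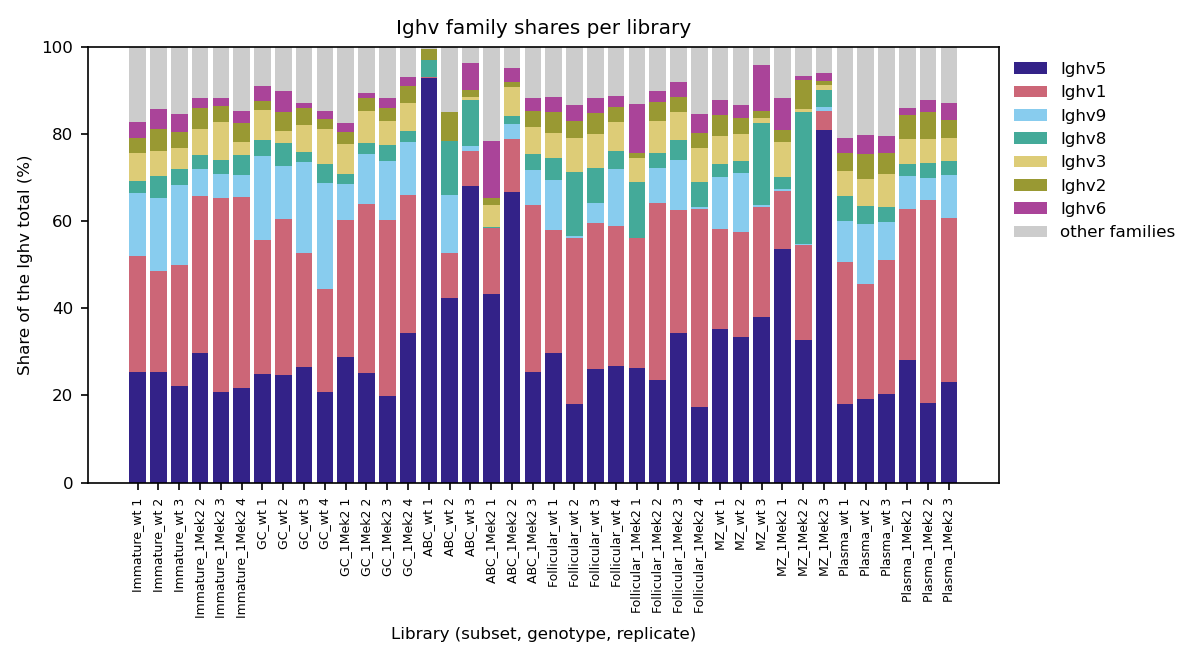
Shares of 7 Ighv families in the Ighv total (percent), stacked for each library, ordered by subset and genotype; grey is all other families. Ighv5 fills 93.0% of ABC_wt replicate 1 and 81.0% of MZ_1Mek2 replicate 3; Ighv1 falls to 0.0953% and 4.23% there.

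Against Follicular, the Ighv5 family held a larger share in ABC (by 31.2 points, exact permutation, adjusted over families, position and subsets p = 0.021) and in MarginalZone (by 20.5, exact permutation adjusted p = 0.021), and Ighv1 a smaller one (-20.5 points in ABC and -15.9 in MarginalZone, exact permutation adjusted p = 0.0223 and 0.021). Without the 4 libraries that stand apart, with fewer libraries to reassign, 10 of the 12 calls made here were no longer under 0.05 (exact permutation adjusted p from 0.05 to 0.104); the exceptions were Ighv7 and Ighv8 in GC. The Ighv5 differences were then 36.1 points in ABC and 20.96 in MarginalZone, and those of Ighv1 -24.0 and -15.3. Ighv4 was higher in Immature by 2.62 points and in Plasma by 2.81 (exact permutation adjusted p = 0.021 for both), and Ighv10 in Immature by 1.21 (exact permutation adjusted p = 0.021). Ighv3 was lower in ABC by 3.74 points (exact permutation adjusted p = 0.0223). In GC, Ighv9 was higher by 9.15 points and Ighv7 and Ighv8 lower, by -2.38 and -4.07 (exact permutation adjusted p = 0.0223, 0.021 and 0.0265). The animals of the GC libraries and those of the Immature libraries were largely other ones than those of the Follicular libraries. In each case only animal 636 gave both subsets, so subset and animal are hard to tell apart in these calls. The share-weighted distance of the segments in use from the most D-proximal one was shorter in ABC by 378 kb (exact permutation adjusted p = 0.0223).

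Single segments of wt libraries were tested against Follicular wt in the same way. In Plasma 120 of 137 tested segments were higher and none lower, where 10.7% of all rows were called higher. Ighv11-2, a segment known from B-1 cells, stood at 1710, 920.5 and 1616 TPM in Plasma and 1.05, 0, 5.99 and 14.3 TPM in Follicular (log2 fold change 8.47 ± 0.83 SE, limma adjusted p = 0.000176), the largest difference. Ighv7-1, Ighv1-22 and Ighv10-1 followed with 7.98 ± 0.80, 7.17 ± 0.73 and 6.83 ± 0.80 (SE, limma adjusted p = 0.000189, 0.000204 and 0.000383).

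In Immature 4 of 123 segments were higher than in Follicular and none lower, with 1.5% of all rows called higher: Ighv4-1 (log2 fold change 3.996 ± 0.73 SE), Ighv6-7 (3.29 ± 0.63), Ighv4-2 (3.06 ± 0.54) and Ighv2-2 (2.18 ± 0.48; limma adjusted p from 0.0309 to 0.0496). Ighv4-1 stood at 89.4, 65.6 and 65.3 TPM in Immature and at 4.18, 0.353, 2.52 and 17.4 TPM in Follicular. Immature and Follicular wt libraries came from different animals, so subset and animal cannot be told apart in these Immature calls. Follicular_wt replicate 4 was the highest of its group here. Without it 79 segments were called higher and 1 lower in place of 4 higher. In that run 2832 of all 13607 rows were called higher and 2573 lower. No segment was called when any other library was left out. In GC 1 segment was higher (Ighv4-1, log2 fold change 2.25 ± 0.68 SE) and 2 lower (Ighv8-13, -3.29 ± 0.95, and Ighv10-3, -2.12 ± 0.67; limma adjusted p from 0.0281 to 0.0406), where 11.7% of all rows were called higher and 11.1% lower. After quantile normalisation 2 were higher and none lower. The count was 15 without Follicular_wt replicate 4. Ighv8-13 belongs to the second set, which GC wt libraries held at 0% to 0.329% and Follicular wt libraries at 0.150% to 21.1%. GC and Follicular wt libraries also came from different animals, so subset and animal cannot be told apart in these GC calls. In MarginalZone no segment of 119 was called, with 0.182% of all rows called (6 segments below an unadjusted p of 0.05, and 1 with edgeR, which called none).

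In ABC 6 of 112 segments were higher and 26 lower than in Follicular, where 3.82% of all rows were called higher and 24.8% lower. The share called lower was thus no larger than over all rows, and the share called higher was only slightly larger. The median log2 fold change was -1.39 over the segments and -1.16 over all rows. The 6 were all of family 5: Ighv5-4 (592.4 against 91.6 TPM on average), Ighv5-2, Ighv5-12, Ighv5-9-1, Ighv5-12-4 and Ighv5-9, with log2 fold changes of 2.92 ± 0.97 (SE) for Ighv5-4 down to 2.13 ± 0.67 for Ighv5-9 (limma adjusted p from 0.00658 to 0.0482). Ighv5-2 stood at 196.8, 128.0 and 123.2 TPM in ABC and at 16.4, 19.98, 17.1 and 45.6 TPM in Follicular, without overlap. Ighv5-6 was not called (log2 fold change 2.90 ± 1.45 SE, limma adjusted p = 0.153). The largest decreases were in Ighv3-6 (-4.26 ± 0.92), Ighv1-5 (-4.21 ± 1.02), Ighv7-3 (-3.96 ± 1.03) and Ighv1-14 (-3.85 ± 0.97; limma adjusted p from 0.0129 to 0.0223). Ighv3-6 had 2.06, 0 and 5.39 TPM in ABC and 19.1 to 117.2 TPM in Follicular. Between 9 and 51 segments were called when single libraries were left out, 9 without Follicular_wt replicate 3 or ABC_wt replicate 2 and 51 without ABC_wt replicate 3. After quantile normalisation 5 were higher and 5 lower.

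Heavy chain constant genes and recombination genes were followed in a list of 24 genes. Between genotypes, Plasma libraries labelled 1Mek2 held more Ighg1 (9458, 12406 and 10097 TPM against 2009, 1142 and 2616), the constant gene of IgG1, and more Ighg2c and Ighg3; Igha, that of IgA, was lower (6265, 3233 and 3668 TPM against 11703, 12067 and 10714), as was Ikzf1. That makes 3 of 19 tested list genes higher and 2 lower in Plasma, where 0.654% of all rows were called higher and 8.3% lower. The share called lower was near that over all rows. None of the 5 was called with edgeR, without a filter, or without any 1 of Plasma_wt replicates 1 and 3 and Plasma_1Mek2 replicates 1 and 3, and Ighg1 alone after quantile normalisation or without Plasma_1Mek2 replicate 2. In Immature, Ighe and Ighg3 were higher (2 of 20), though neither with edgeR or without Immature_1Mek2 replicate 3 or 4. In GC Ighe was higher (1 of 18), but not with edgeR, after quantile normalisation, with pseudocount 0.1 or when any library other than GC_wt replicate 4 was left out. Of the 17, 16 and 16 list genes tested in ABC, Follicular and MarginalZone none was called. Against Follicular wt, GC libraries held more of 10 of 18 list genes, the 4 Ighg genes and Ighe among them, and less Ighd, where 11.7% of all rows were called higher and 11.1% lower. The share called lower was no larger than over all rows. Plasma libraries held more of 9 of 18, Ighm, Igha and the Ighg genes included, and less of 6, Pax5 and Ebf1 among them, where 10.7% and 19.9% of all rows were called. ABC libraries held more Dntt and Igha (2 of 17) and less of 3 list genes, Ighd among them (3.82% and 24.8% of all rows). The share of list genes called lower in ABC was thus no larger than over all rows. The 3 lower calls were lost after quantile normalisation, with edgeR and without ABC_wt replicate 2. Immature libraries held more of 3 of 17, Ighg2c and Ighm among them (1.5% of all rows), but none of these without Follicular_wt replicate 2 or 3, and MarginalZone none of 16 (limma, Benjamini-Hochberg over all rows). Rag1 and Rag2, which carry out the joining, did not pass the filter on low values in any comparison and were not tested.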

How the data were processed

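RNA of sorted mouse splenic B cells was poly(A)-selected and sequenced in 100-base reads, per the labels' protocols. Tools listed in the submitters' processing notes are Trim Galore 0.6.5, STAR 2.7.11a and featureCounts 2.0.3, with build GRCm39; how reads with several places were treated is not given in the sources used here. The authors deposited TPM per gene and a table of raw counts. In the deposited count table all Ighv rows are 0, so only its coordinates were used for them, and every value comes from TPM.

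TPM times exonic length is a whole multiple of 1 constant per library (100% of 705751 values below 1000 reads, tolerance 0.02), which gave exon reads. They were used for read numbers and for edgeR. Reads carry no molecular identifiers, so intervals and the limit of 3 reads that a value of 0 allows cover counting error only. Depth was 7902640 to 29204625 exon reads per library.

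Shares are of the Ighv TPM sum. Single values were compared by two-sided exact permutation tests over libraries or, averaged over subsets, over animals, with Benjamini-Hochberg adjustment. P-values between subsets treat libraries as independent though animals are shared. Rows were tested with limma 3.58.1 on log2(TPM + 1) among rows at 1 TPM or more in as many libraries as the smaller group. On simulated data (Follicular, 4 against 4) limma recovered 197 of 200 changed rows with 12 false calls, and edgeR 4.0.16 recovered 200 with 8. The changed rows all had many reads and changed by the same factor, up or down. Animals did not differ in the simulation, so it cannot show how often rows that vary between animals, such as Ighv rows, are called. Named were the top segment of each library, the top 3 of each group, segments reaching 10%, up to 4 called segments per direction, and constant genes; other names were chosen after their values were seen. Members and lists were chosen with earlier results of these data known. Alternatives were another pseudocount (0.1), no filter, quantile normalisation, edgeR, exon reads, other evenness measures, no pseudogenes, blocks, wt alone and single libraries left out. Tests of families between genotypes and runs without the 4 libraries above 1000 TPM of Ms4a1 were added after seeing the data. Sequences are from GENCODE M21 transcripts. Some genes of the constant and recombination gene list are counted but not reported by name here.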

Additional observations from a re-analysis of the deposited data

Results flagged for a closer look

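In groups of 4 libraries, 9 of 124 checks found 1 library far from the other 3. The limit used passes about 1 in 20 groups of independent, normally distributed values, and 9 of 124 is not far above that. The checked shares overlap and some lie near 0, so this rate is only a rough guide here. Follicular_1Mek2 replicate 2 had an Ighv total of 0.753% against 0.0968% to 0.123%, and an effective number of Igkv rows of 43.98 against 23.1 to 25.3. The Ighv10 family held 1.83% in Follicular_wt replicate 4 against 0.828% to 0.989%. The Ighv14 family held 6.18% in GC_wt replicate 3 against 3.08% to 3.27%, and the Ighv8 family 3.58% in GC_1Mek2 replicate 3 against 2.30% to 2.42%. Ighv1-5 held 6.84% in GC_wt replicate 2 against 1.23% to 1.51%. Ighv5-9 held 8.22% in Follicular_1Mek2 replicate 1 against 3.39% to 4.04%. In GC_wt replicate 1, Ighv8-4 held 0.109% against at most 0.0184%, and Ighv8-6 held 0.0213% against 0 in the others; the latter is 2 reads, under the 0.0309% that a count of 0 allows in this library.

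Some family shares differed between genotypes in opposite directions in 2 subsets, without overlap of the genotypes in either. The pairs of subsets were picked for this, so the difference between them was not tested. For Ighv1 the genotype difference was 15.6 points in Immature, 15.7 in ABC and 9.62 in Plasma against -11.0 in MarginalZone, which are 26.6, 26.7 and 20.6 points apart. For Ighv14 it was 2.69 in ABC and 1.37 in Plasma against -1.37 in MarginalZone, 4.06 and 2.73 points apart. For Ighv10 it was 1.03 in ABC and -2.14 in Plasma, 3.17 points apart. For Ighv3 it was 5.75 in ABC and -0.986 in Plasma, 6.73 points apart.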

How the results depend on the processing

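Values are differences as in the report; where no cause is named, the cause was not tested. In exon reads the largest share differed between genotypes in Follicular by 0.150 (from -0.00872) and between Immature and Follicular by 0.0366, and Plasma minus Follicular was -2.89. By Shannon entropy the effective number of Plasma minus Follicular was 10.2 (exact permutation adjusted p = 0.0939). On the log2 scale the genotype difference of the total was -0.120 in Follicular and 0.0376 in MarginalZone. Without the libraries high in Ms4a1 these were -0.0332 and 0.0762 points, the largest share in Follicular 1.04, and the totals of GC and MarginalZone minus Follicular 0.263 and 0.0199.

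With wt alone (fewer libraries), the totals of Immature and Plasma minus Follicular were 0.451 and 5.89, the effective numbers of Immature, ABC, MarginalZone and Plasma -4.09, -26.4, -12.9 and 8.62, and the largest shares 1.26, 23.3, 4.28 and -2.75. With the animal as replicate block (3 to 5 animals gave both subsets), the totals of MarginalZone and Plasma were 0.00873 and 8.29, the effective numbers of ABC, MarginalZone and Plasma -23.5, -14.4 and 13.9, and the largest shares 21.1, 13.7 and -4.69; with so few animals none of these could pass the threshold. For called segments this block was not run against Immature, GC and Plasma, where under 2 wt animals gave both subsets.

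Called segments between genotypes were 5 with edgeR in Immature, 1 with pseudocount 0.1 and 0 with edgeR in GC, and 0 without a filter, 1 after quantile normalisation and 0 with edgeR in Plasma. With the replicate number as replicate block they were 6, 1 and 0. Only 4 of 19 same-numbered pairs correlated above 0.1 (-0.761 to 0.498). These values gave no sign that the numbers pair libraries, but with so few libraries per group they cannot decide it. Against Follicular, Immature gave 2 with pseudocount 0.1, 0 without a filter, 1 with edgeR and 80 without the libraries high in Ms4a1; GC gave 1, 0, 0 and 15; ABC gave 10 without a filter, after quantile normalisation and with edgeR.

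Leaving out single libraries, called segments ranged from 1 to 40 (Immature), 1 to 3 (GC) and 0 to 4 (Plasma) between genotypes, and from 0 to 80 (Immature), 0 to 15 (GC) and 9 to 51 (ABC) against Follicular. The genotype difference of the largest share ranged from -3.84 to 0.0474 averaged over subsets, -1.63 to 1.02 in Follicular and -1.45 to 0.0130 in Plasma. That of the total ranged from -0.125 to 0.127 in Follicular and -0.125 to 0.0762 in MarginalZone, and that of the effective number from -5.57 to 1.41 in Follicular and -0.456 to 8.79 in Plasma. Against Follicular the total of MarginalZone ranged from -0.106 to 0.0348, the effective number from -25.4 to -16.3 in ABC and 9.10 to 14.3 in Plasma, and the largest share from -1.14 to 0.182 in Immature, 13.6 to 23.1 in ABC and -3.71 to -2.39 in Plasma. Libraries with few Ighv reads (1469 at the lowest) limit what can be said of rare segments there.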
